A study of Mus musculus with 6 samples.

Results

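Transcripts of 10 effector cytokine genes were followed in CD4 T cells grown under conditions that favour a follicular helper (Tfh) state, in which T cells support B cells of germinal centres. The genes were taken as named signature cytokines of type 1 helper (Th1), type 17 helper (Th17) and regulatory T cells: Ifng, Tnf, Lta, Ltb, Csf2, Il17a, Il10, Lif, Tgfb1 and Ebi3. All single-gene probe sets of these genes were used, 12 of the 45037 analysed, with 2 each for Lif and Tgfb1 and 1 for each other gene; the 10 genes stand among 18193 measured in all. The arrays were Affymetrix whole-genome mouse arrays, 3 from wild-type (WT) cells and 3 from SAP-deficient cells. Both genotypes carried the OT-II transgene, whose T cell receptor is specific for a peptide of ovalbumin, so every culture answered a single antigen. SAP is the small adaptor, encoded by Sh2d1a, that carries signals from SLAM-family receptors. Sorted naive cells from spleen and lymph nodes of either genotype were stimulated for 3.5 days by the peptide on splenocytes from which T cells had been removed and whose division had been stopped with mitomycin C. IL-6 (100 ng/ml) and IL-21 (50 ng/ml) were added, together with neutralising antibodies. Those to IL-4 were used at 10 µg/ml and those to TGF-β at 20 µg/ml, and antibodies to IL-12 and IFN-γ were present too. The animals' age is not given in the labels, and whether arrays of a genotype came from separate animals or cultures is not stated either. The p-values therefore reflect the spread among these 6 arrays, which may be partly technical. The design asks which transcripts of such cells depend on SAP.

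Helper T cells act largely through secreted cytokines, many of whose genes are induced by T cell receptor signals through factors such as NFAT, NF-κB and AP-1. Lineage factors then favour some of them: T-bet the gene of IFN-γ, RORγt that of IL-17A, and c-Maf and Blimp-1 that of IL-10. IFN-γ activates macrophages, TNF and the lymphotoxins act on inflammation and lymphoid organ structure, GM-CSF (Csf2) acts on myeloid cells, IL-17A recruits neutrophils, and IL-10, TGF-β1 and the dimers that contain EBI3 restrain immune responses. The antibodies in the medium neutralise proteins after secretion, whereas the arrays read the transcripts.

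Measurements were log2 levels, so 1 unit is a doubling. The targeted transcript checked the labels: Sh2d1a was at 9.50, 8.52 and 9.39 in WT replicates 1 to 3 and at 5.47, 4.10 and 4.92 in SAP-deficient replicates 1 to 3. Over 44687 probe sets of genes outside the cytokines and the lists used here, each WT array resembled the SAP-deficient array with the same replicate number most closely. The correlation of deviations from the mean of each genotype was 0.517, 0.727 and 0.593 in these 3 matched pairs and -0.0981 at most between other arrays of opposite genotype. The replicate numbers follow the order of deposition and the labels state no pairing, so the pairs come from the data. They differ in sex-linked transcripts, which were looked up after the values were seen: Xist was at 12.50 in both replicate 1 arrays, at 8.21 and 8.19 in the replicate 2 arrays, and at 5.81 and 6.26 in the replicate 3 arrays. The Y-linked Eif2s3y was at 3.54 and 2.91 in replicate 1 and at 9.76 to 9.98 in replicates 2 and 3, so by this gene pairs 2 and 3 were alike. T cell markers were high in every array (mean of 7 genes, 11.08 to 11.26 in WT and 11.04 to 11.19 in SAP-deficient arrays). The 7 NK and CD8 T cell genes had means of 6.74 to 6.85 in WT and 6.70 to 6.88 in SAP-deficient arrays. By the background limit given below, 3 of these passed on all arrays (Klrd1, Cd8b1 and Klrc1) and 3 on none (Ncr1, Cd8a and Klra1). The part of such cells in the cytokine levels was not tested.

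All 10 cytokine genes were above background on all 6 arrays. Background was set on each array as the 95th percentile of 127 probe sets of olfactory, vomeronasal and taste receptor and hair keratin-associated genes, which lay between 6.09 and 6.30; over all genes, 50.7% passed it on all 6 arrays. Levels of different probe sets are not compared, since probe sets differ in their response. Only Il10 came near the limit: in replicate 2 it lay 0.06 above it in WT and 0.32 above it in SAP-deficient cells, against 1.58 to 2.23 in the other 4 arrays. Ebi3 was the next closest, at 1.76 to 2.75 above the limit, and for the other 8 genes the margin was at least 3.91. The second probe sets of Tgfb1 (0.77 to 1.45) and Lif (1.00 to 1.53) were also close to it. At the 99th percentile, 7.09 to 7.33, 9 of the 10 genes still passed on all arrays, and Il10 passed on 4.

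To show what lies before genes of either kind of behaviour, the 250 bases before the RefSeq start site (build GRCm38.p6) are shown for 3 genes whose levels differed widely between arrays and 2 whose levels differed little. RefSeq's promoter table held 9 of the 10 genes; Il10 was not among them. Capitals mark TATAAA, the NF-κB motif GGGNNTTTC and the AP-1 motif TGANTCA, each searched on both strands with no overlap between matches of these 3 motifs. Ifng (chr10:118440796-118441045, plus strand), Tnf (chr17:35202008-35202257, minus strand) and Il17a (chr1:20730655-20730904, plus strand) come first, then Ltb (chr17:35194257-35194506, plus strand) and Tgfb1 (chr7:25686752-25687001, plus strand).
Ifng: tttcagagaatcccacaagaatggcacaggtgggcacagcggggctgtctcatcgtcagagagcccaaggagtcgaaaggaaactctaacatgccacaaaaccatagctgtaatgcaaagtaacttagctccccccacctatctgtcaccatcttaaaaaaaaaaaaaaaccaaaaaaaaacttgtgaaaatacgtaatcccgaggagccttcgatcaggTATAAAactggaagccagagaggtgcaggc
Tnf: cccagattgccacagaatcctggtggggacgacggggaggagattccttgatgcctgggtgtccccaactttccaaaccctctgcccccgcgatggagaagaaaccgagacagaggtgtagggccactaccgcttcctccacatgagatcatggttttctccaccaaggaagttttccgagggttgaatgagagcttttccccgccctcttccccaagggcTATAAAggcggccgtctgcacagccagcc
Il17a: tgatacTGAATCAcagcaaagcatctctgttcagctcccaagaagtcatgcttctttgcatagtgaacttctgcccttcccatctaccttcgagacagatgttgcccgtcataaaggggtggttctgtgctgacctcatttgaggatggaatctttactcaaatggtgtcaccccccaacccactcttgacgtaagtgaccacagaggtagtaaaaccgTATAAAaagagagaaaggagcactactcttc
Ltb: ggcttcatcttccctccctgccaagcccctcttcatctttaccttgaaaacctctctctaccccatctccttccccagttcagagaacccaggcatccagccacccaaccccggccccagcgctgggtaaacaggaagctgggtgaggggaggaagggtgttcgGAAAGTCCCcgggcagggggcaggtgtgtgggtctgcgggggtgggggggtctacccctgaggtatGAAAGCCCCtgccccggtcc
Tgfb1: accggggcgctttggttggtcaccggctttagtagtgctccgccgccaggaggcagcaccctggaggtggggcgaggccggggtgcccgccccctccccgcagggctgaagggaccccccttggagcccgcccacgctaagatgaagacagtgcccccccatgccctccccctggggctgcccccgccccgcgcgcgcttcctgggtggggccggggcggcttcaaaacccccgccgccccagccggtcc

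A TATAAA stood at -30 to -25 in Ifng, at -29 to -24 in Tnf and at -31 to -26 in Il17a, counted from the start site, and none in Ltb or Tgfb1. With Lta, where it lay at -167 to -162, 4 of the 9 promoters held it, against 12.4% of all 32851 RefSeq promoters of this length. For Lta the start site used is not the gene end in the RefSeq gene table, and the Lta matches given here lie within that gene. TATAAA was also not found in Csf2, Lif or Ebi3, whose levels spanned 0.80, 0.79 and 0.83 over the arrays and 0.71, 0.74 and 0.47 between pair means. The NF-κB motif was found in Ltb alone of the 9 (3.72% of all promoters) at -86 to -78 and at -20 to -12, and the AP-1 motif in Il17a and Lif (6.75%). Other motifs searched were NFAT GGAAAA (Tnf, 20.4% of all promoters), CRE TGACGT (Il17a, 6.47%), RORE AGGTCA (Il17a, 14.0%), STAT TTCNNNGAA (Ifng, Lta and Ltb, 7.02%) and ETS CCGGAA (Ebi3, 12.03%). GC content was 45.2% in Ifng and 46.0% in Il17a, 75.2% in Tgfb1, and 52.4% in the median promoter. These are matches of letters and not measured binding sites.

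Most variation of the inducible cytokines lay between the matched pairs and not between genotypes. In 7 of the 10 genes (Ifng, Tnf, Lta, Csf2, Il17a, Il10 and Lif) both replicate 2 arrays lay below all 4 others. That order was met by 17.6% of all genes and by 20.8% of genes above the median level, and the opposite order, both replicate 2 arrays on top, by 18.2% and 28.7% and by 0 of the 10. The pairs were found from other genes, but they were found in the same arrays, so this is a description without a test. The median share of a gene's variance that lay between pairs was 90.1% for the 10 genes, 66.9% for all genes and 80.9% for genes above the median level; the median share between genotypes was 5.25%, 6.36% and 4.15%. The span over the 6 arrays had a median of 0.81 for the 10 genes and 0.39 for all genes. In bulk RNA, fewer cells with a transcript cannot be told apart from less transcript per cell.

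**Figure D1:**
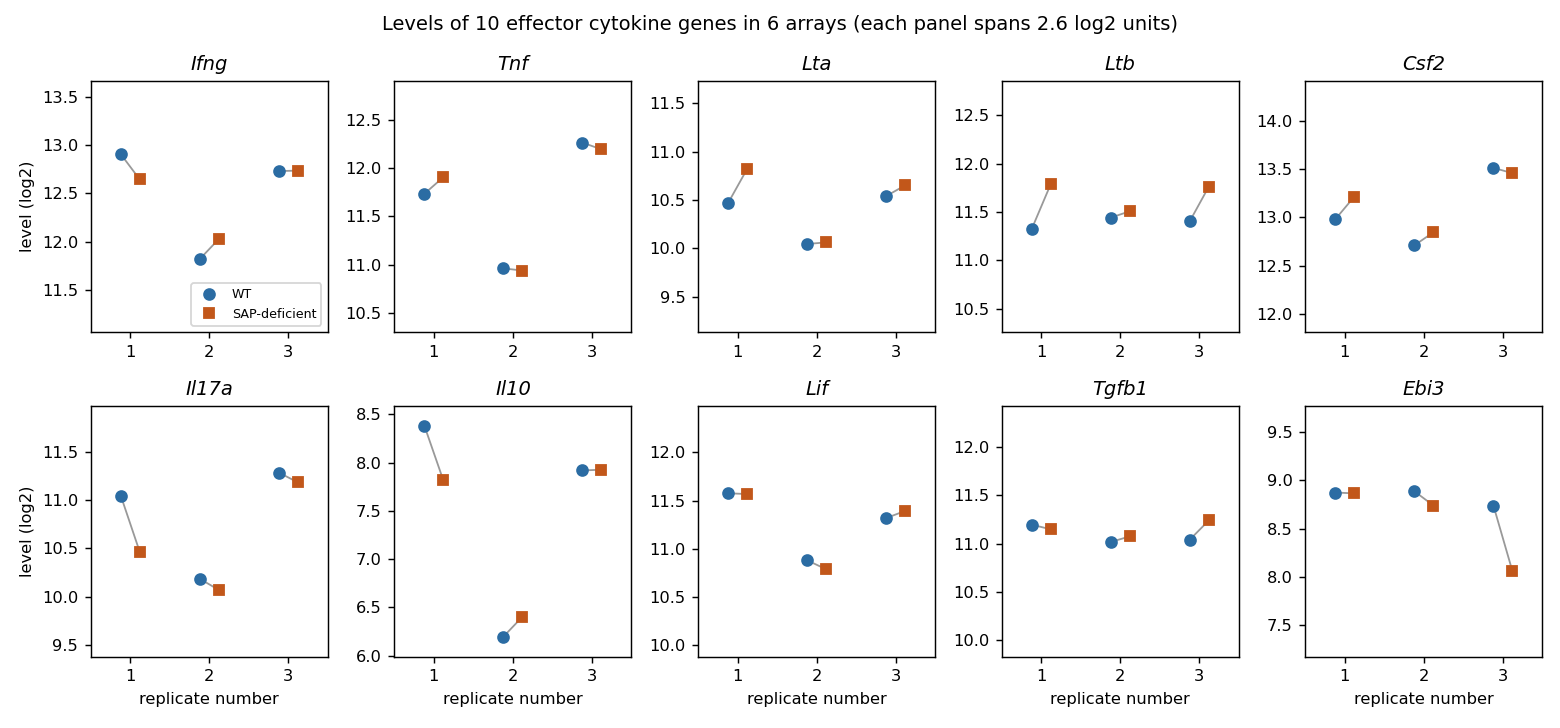
Level of each of the 10 genes (log2, vertical axis, 2.6 units in every panel) by replicate number (horizontal axis), with WT arrays as circles and SAP-deficient arrays as squares; grey lines join the matched pairs. Replicate 2 is lowest in both genotypes for Ifng, Tnf, Lta, Csf2, Il17a, Il10 and Lif, and Ltb is the gene whose squares all lie above its circles.

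Ifng (probe set 1425947_at) encodes IFN-γ, the defining Th1 cytokine. It was at 12.90, 11.82 and 12.73 in WT replicates 1 to 3 and at 12.64, 12.03 and 12.73 in SAP-deficient replicates 1 to 3. The genotypes overlapped and replicate 2 was low in both. The genotype difference (SAP-deficient minus WT, log2, here and below) was -0.02 with a 95% interval of -0.68 to 0.65.

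Tnf (1419607_at), the gene of the inflammatory cytokine TNF, was at 11.73, 10.96 and 12.27 in WT and at 11.91, 10.94 and 12.20 in SAP-deficient cells. It spanned 2.51-fold over the arrays, with the same order of replicates in both genotypes, and 98.97% of its variance lay between pairs. The genotype difference was 0.03 (-0.86 to 0.91).

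Lta and Ltb lie close to Tnf on chromosome 17 in the RefSeq gene table. Lymphotoxin α is secreted alone or held at the cell surface by lymphotoxin β, and the surface form signals through the lymphotoxin β receptor to organise lymphoid tissue. Lta (1420353_at) was at 10.47, 10.04 and 10.54 in WT and at 10.82, 10.06 and 10.65 in SAP-deficient cells. It followed the order of low replicate 2 seen for Tnf. Its difference was 0.16 (-0.33 to 0.65), and within the matched pairs it was higher by 0.35, 0.02 and 0.11. Leaving out the SAP-deficient array of replicate 1 gave 0.0049, and leaving out that of replicate 2 gave 0.38.

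Ltb (1419135_at) did not share that order. It was at 11.32, 11.44 and 11.40 in WT and at 11.79, 11.51 and 11.76 in SAP-deficient cells. All SAP-deficient arrays lay above all WT arrays, and only 6.89% of its variance lay between pairs against 70.3% between genotypes. Of the 10 genes, 1 had groups that did not overlap with SAP-deficient cells higher and 0 had them lower; among all genes these shares were 2.38% and 2.94%. The difference of Ltb was 0.30 (0.08 to 0.51), or 1.23-fold, with 0.46, 0.07 and 0.36 within the pairs. Adjusted over all genes, its p was 1.00 (limma).

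Csf2 (1427429_at) encodes GM-CSF, which drives myeloid cells and marks pathogenic helper cells. It was at 12.98, 12.71 and 13.51 in WT and at 13.21, 12.84 and 13.46 in SAP-deficient cells. Replicate 3 was highest and replicate 2 lowest in both genotypes. The difference was 0.10 (-0.39 to 0.59).

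Il17a (1421672_at), the signature cytokine gene of Th17 cells, was at 11.05, 10.18 and 11.28 in WT and at 10.46, 10.07 and 11.18 in SAP-deficient cells. Each SAP-deficient array lay under its matched WT array, with differences of -0.58, -0.12 and -0.10. The genotypes overlapped, and the difference was -0.27 (-1.05 to 0.51). Single arrays moved it: without SAP-deficient replicate 2 or WT replicate 3 it was -0.01 or -0.04, and without WT replicate 2 or SAP-deficient replicate 3 it was -0.59 or -0.57. With 1 array left out, the pairs are unbalanced between the genotypes.

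Il10 (1450330_at), whose product damps inflammation and is made by many activated helper cells under IL-6 or IL-21, varied most. It was at 8.38, 6.20 and 7.92 in WT and at 7.82, 6.40 and 7.93 in SAP-deficient cells, a span of 4.54-fold. Replicate 2 was close to background in both genotypes, so differences from it can be understated. The genotype difference was -0.12 with a wide interval, -1.48 to 1.25, and within the pairs it was -0.57, 0.21 and 0.01.

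Lif (1421207_at), the gene of a cytokine of the IL-6 family, was at 11.58, 10.88 and 11.32 in WT and at 11.57, 10.79 and 11.39 in SAP-deficient cells. The 2 genotypes followed each other closely, and the difference was -0.01 (-0.54 to 0.52). A second, dimmer probe set (1450160_at), at 7.12 to 7.76, also had replicate 2 lowest and gave 0.17 (-0.28 to 0.61).

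Tgfb1 (1420653_at) encodes TGF-β1, which is stored in a latent form and acts after release. By this probe set it was the steadiest of the 10, at 11.20, 11.02 and 11.04 in WT and at 11.15, 11.07 and 11.24 in SAP-deficient cells. The span was 1.17-fold. The difference was 0.07 (-0.13 to 0.27). A second, dimmer probe set (1445360_at) ran the other way between pairs, with its lowest values, 6.96 and 7.01, in replicate 1. This second probe set was less steady: it spanned 1.62-fold, and 91.2% of its variance lay between pairs. Its genotype difference was 0.14 (-0.35 to 0.62).

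Ebi3 (1449222_at) encodes the subunit shared by IL-27 and IL-35 and is expressed by activated B cells and dendritic cells as well as by T cells. It was at 8.87, 8.89 and 8.74 in WT and at 8.87, 8.74 and 8.06 in SAP-deficient cells. SAP-deficient replicate 3 stood alone below the other 5 arrays. The difference was -0.28 (-0.76 to 0.20), with -0.01, -0.15 and -0.68 within the pairs, and it was -0.03 without SAP-deficient replicate 3. The mean levels of MHC class II and of B cell markers, which the added splenocytes carry, were also at their lowest in that array. Single genes did not all follow: H2-Ab1, H2-DMa, Ms4a1, Cd79a, Pax5, Blk, Cr2 and Ighm had their lowest level in other arrays. Within pair 3 the median difference of the 5 MHC class II genes was -0.40 and that of 10 B cell genes -0.23, against -0.04 and -0.06 in pair 1 and -0.06 and -0.04 in pair 2. Over all arrays the mean level of the MHC class II genes was 8.72 to 9.06 in WT and 8.394 to 8.996 in SAP-deficient cells, all 5 above background throughout, and that of the B cell genes was 6.06 to 6.34 and 5.87 to 6.19. Of the 10 B cell genes 7 were above background on no array (Ms4a1, Cd79a, Pax5, Blk, Cr2, Fcer2a and Cd22). The 11 macrophage and dendritic cell genes had means of 6.11 to 6.32 and 5.98 to 6.34, with 4 above background on no array (Fcgr1, Adgre1, Siglech and Itgam). The part of these cells in the Ebi3 difference was not tested. With replicates 1 and 2 alone, a choice made after seeing the data, Ebi3 differed by -0.08 and Ltb by 0.26.

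**Figure D2:**
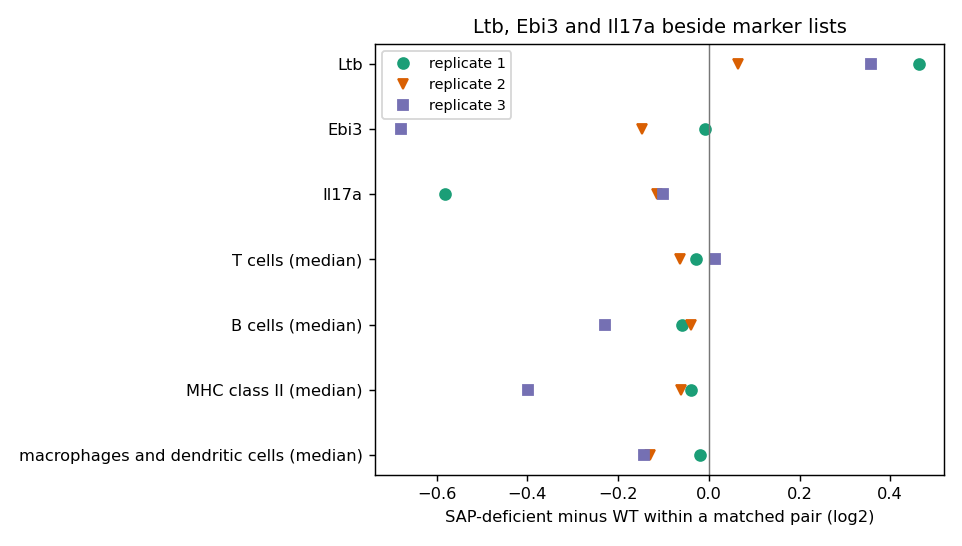
Difference between the SAP-deficient and the WT array within each matched pair (log2, horizontal axis) for Ltb, Ebi3 and Il17a and as the median over 4 marker lists; symbols give the replicate number. Ltb lies right of 0 in all 3 pairs, while Ebi3 (-0.68), MHC class II genes (-0.40) and B cell genes (-0.23) are lowest in replicate 3.

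No cytokine gene passed the threshold between the genotypes. With limma on all arrays, 0 of the 10 were called at an adjusted p under 0.05, as were 0% of all genes and 0% of all probe sets, and 1 of the 10, Ltb, had an unadjusted p under 0.05, as did 1.31% of all genes. Every one of the 10 had an adjusted p of 1.00. Of the 10, 5 were higher and 5 lower, and their median difference was 0.01, as was that of all genes (0.01). The same fit gave Sh2d1a, the targeted gene, a difference of -4.31 with an adjusted p of 0.0501 (limma), so it did not call that gene either.

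With the matched pairs as a block, 0 of the 10 were called and 0.0055% of all genes, which is Sh2d1a alone. At an unadjusted p under 0.05, 2 were higher (Ltb and Lta, against 3.49% of all genes) and 2 lower (Il17a and Ebi3, against 2.61%). The same 4 genes were those that differed in 1 direction in all 3 pairs, 2 higher and 2 lower, against 15.6% and 13.1% of all genes. Their blocked intervals were 0.14 to 0.45 for Ltb, 0.000017 to 0.32 for Lta, -0.47 to -0.07 for Il17a and -0.54 to -0.01 for Ebi3, and their adjusted p-values over all genes were 0.596, 0.814, 0.740 and 0.814 (limma). For Tnf and Lif, whose variance lay almost wholly between pairs, the block narrowed the interval to -0.10 to 0.15 and -0.12 to 0.11, and for Il10 to -0.42 to 0.19.

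**Figure D3:**
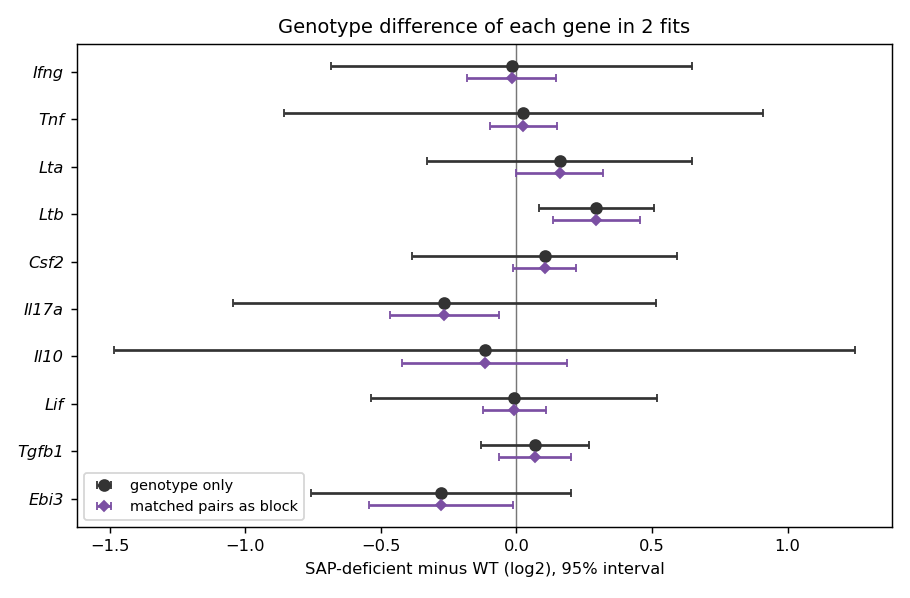
SAP-deficient minus WT difference of each gene (log2, horizontal axis) with its 95% interval, from limma on genotype alone (circles) and with the matched pairs as a block (diamonds). The block narrows the intervals without moving the estimates, and the Ltb interval lies above 0 in both fits.

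**Figure D4:**
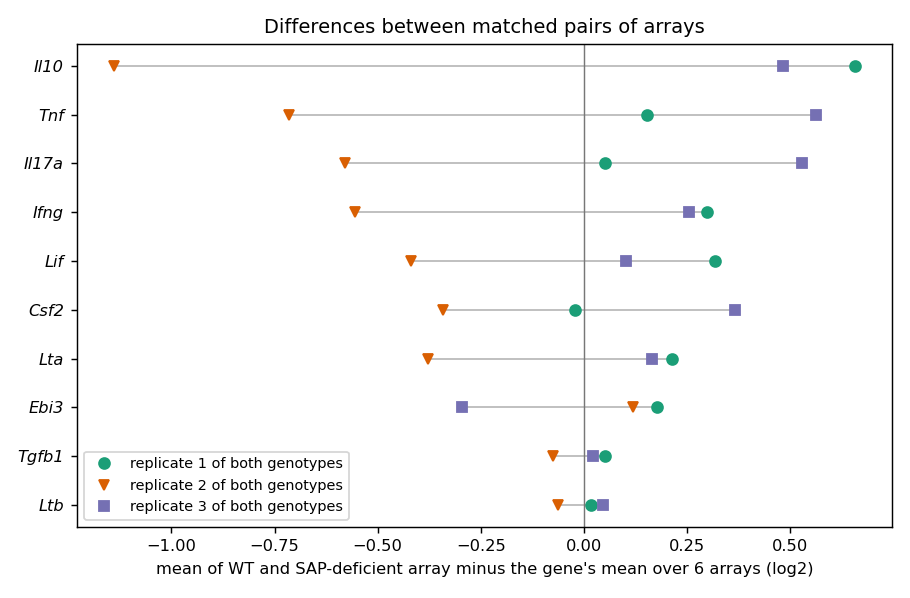
Mean of the WT and the SAP-deficient array of each matched pair minus the gene's mean over all 6 arrays (log2, horizontal axis), with genes ordered by the span between pairs; symbols give the replicate number. The span falls from Il10 and Tnf at the top to Tgfb1 and Ltb at the bottom, and the triangle of replicate 2 is leftmost in every gene but Ebi3.

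For each gene the 3 genes with the closest profile over the 6 arrays, by Euclidean distance between values centred on each gene's mean, were listed among genes above the median level. The closest to Ifng was Nr4a2 (distance 0.16), an orphan receptor gene induced by T cell receptor signals, then Slc25a1 (0.23) and Hspa4l (0.24). The closest to Il10 was Egr3 (0.35), a further gene induced by T cell receptor signals, then Igfbp4 (0.50) and Mpzl2 (0.51). Egr3 was at 10.14, 8.08 and 9.88 in WT and 9.97, 8.36 and 10.09 in SAP-deficient cells. Closest to Tnf was Tnfsf14 (0.16), the gene of the related ligand LIGHT, then Shroom3 and Zfp655 (each 0.17). Csf2 had Il6st (0.12), the receptor chain shared by the IL-6 family, then Dnajc27 (0.14) and Pigm (0.15). Il17a was followed by Cblb (0.27), Adh4 and Enah, Lta by Slc31a1 (0.16), Sft2d3 and Ocel1, and Lif by Dgka (0.06), A430093F15Rik and Pfkl. Ltb had Ccdc22 (0.10), Hrh2 and Orai3 nearest, Tgfb1 Mtch1, Cep83 and Exoc5 (each 0.05), and Ebi3 P4htm (0.19), Emilin1 and Pde4d. Among all genes 17.6% share the low replicate 2 of Ifng, Tnf and the others.

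Among partner and sister cytokines, 10 of the 15 listed were analysed, and Il17f, Il22, Il27, Il17c and Il19 were not analysed here. In 5 of the 10, both replicate 2 arrays lay below the rest, beside 17.6% of all genes, and in 1 they lay above it, beside 18.2%. Of the 5 with replicate 2 lowest, Il12a and Tgfb3 were above background on no array and Il17b on 4. Tnfsf14 was also among the 5, at 11.47, 10.78 and 12.04 in WT and 11.72, 10.82 and 12.12 in SAP-deficient cells. So was Il3, a growth factor of myeloid cells, at 13.66 to 13.94. Il24 of the IL-10 family was highest in replicate 3 (12.02 and 12.17), and Osm, a relative of Lif, was at 8.40 to 8.89. The subunit Il12a, which joins EBI3 in IL-35, was above background on no array, nor were Il17d, Il25 and Tgfb3. None was called between genotypes; 6 were higher and 4 lower.

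Of the 20 receptor genes, 3 had both replicate 2 arrays lowest and 7 had them highest, beside 17.6% and 18.2% of all genes (20.8% and 28.7% of those above the median level); a difference from other genes was not tested. Tgfbr3, a TGF-β co-receptor, was at 8.10 and 7.99 in replicate 2 and at 6.09 to 6.63 elsewhere. Ifngr2, the second chain of the IFN-γ receptor, was lowest in replicate 1 (6.71 and 6.87) and at 7.39 to 7.79 otherwise, and Tgfbr2 was at 10.19 and 10.29 in replicate 2 against 9.43 to 9.92. Of the 20, 12 were above background on all arrays, and Ltbr, Tnfrsf14, Csf2rb2, Il17rc and Lifr on none. Between genotypes 10 were higher and 10 lower with 0 called; Il10ra (0.25 ± 0.17, SE), Il27ra (0.19 ± 0.14) and Ltbr (0.16 ± 0.11) had the smallest p-values among higher and Il12rb2, a chain of the IL-12 receptor, among lower genes (-0.24 ± 0.22).

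Of 21 transcription factor genes that act on these cytokine genes, 7 had both replicate 2 arrays lowest and 4 highest. Among all genes these shares were 17.6% and 18.2%, and among genes above the median level 20.8% and 28.7%. Of the 4, Foxp3 was above background on no array and Ahr on 2. Chosen after the values were seen, Nfatc1, which encodes an NFAT factor, was at 9.50 and 9.42 in replicate 2 against 10.66 to 10.98 elsewhere. Nfatc2, a further NFAT gene of the list, ran the other way, at 9.30 and 9.39 in replicate 2 against 8.33 to 8.73. Between genotypes 14 of the 21 were higher and 7 lower, and 0 were called. Foxp3, counted as higher, and Hlx, counted as lower, were above background on no array. Among all genes 53.3% were higher, and among those above the median level 62.6%. The smallest p-values belonged to Maf (0.39, -0.04 to 0.83), the IL-10 regulator c-Maf, to Prdm1 (0.33, -0.10 to 0.76), which encodes Blimp-1, to Batf (0.17, -0.06 to 0.40) and to Stat4 (-0.24, -0.57 to 0.08), the transducer of IL-12. All had an adjusted p of 1.00 (limma). Maf lay between 5.89 and 6.72, near background, and was under it in WT replicate 3 and SAP-deficient replicate 1. Within the pairs Maf differed by -0.15, 0.56 and 0.77. Prdm1, between 5.73 and 6.61, was near background too and under it in WT replicate 2. Within the pairs Prdm1 differed by 0.30, 0.50 and 0.20.

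The response genes of the cytokines were not called either. Of 19 IFN-γ response genes 7 were higher and 12 lower (median -0.03). Of these 12, Nos2, Ciita and Cxcl9 were above background on no array. Both replicate 2 arrays were highest in 8 and lowest in 4 of the 19, beside 18.2% and 17.6% of all genes. Of these 8, Iigp1, Cxcl10 and Ido1 were above background on only 2 arrays. Irf1, named after its values were seen, was at 10.32 and 10.30 in replicate 2 and at 8.94 to 9.14 in the other arrays. Of 15 TNF and NF-κB response genes 14 were higher (median 0.07), among them Traf1 (0.14 ± 0.08), Bcl3 (0.26 ± 0.22) and Tnfaip3 (0.15 ± 0.13). Of 11 TGF-β response genes 10 were higher (median 0.10), among them Smad3 (0.32 ± 0.22) and Id2 (0.14 ± 0.13). These counts of higher genes include some above background on no array: Ccl20 of the 15, and Smad6 and Ccn2 of the 11. Among all genes 53.3%, and among those above the median level 62.6%, were higher, and with replicates 1 and 2 alone the counts were 12 of 15 and 8 of 11. Genes that handle latent TGF-β had 7 of 10 higher (median 0.05) and genes of cytokine mRNA decay 5 of 10 (median 0.02), each with 0 called. Of the 10 genes that handle latent TGF-β, 5 were above background on no array.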

How the data were processed

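RNA (500 ng per sample) of cultured T cells was hybridised to 6 arrays, 3 labelled WT and 3 SAP-deficient. The deposited values are log2 levels per probe set, made by the authors with Affymetrix Expression Console and RMA per the submitters' processing notes, with no versions stated there. RMA equalises the arrays' distributions, so a shift of all transcripts would not show, and no detection calls or depths come with these values; 6 arrays limit the precision. Of 45037 probe sets left without 64 controls, 34945 named 1 gene, 932 several and 9160 none in the platform annotation. Each of 18193 genes was represented by whichever of its single-gene probe sets had the greatest mean. Genotypes were compared with limma 3.58.1 (R 4.3.3; lmFit, eBayes with an intensity trend) over all probe sets, with Benjamini-Hochberg adjustment over genes and a threshold of 0.05; the script was tested on simulated data. Values given with ± in the text are the difference and its standard error. Members and lists were chosen with earlier results of these data known. Named were the 10 genes, Sh2d1a, any partner or receptor, at most 4 genes with the smallest p of each other list, and the 3 nearest profiles; exceptions are stated. Alternatives were other variance models, normalizations, filters, probe set rules, array weights, each array left out, and the matched pairs as a block.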

Additional observations from a re-analysis of the deposited data

How the results depend on the processing

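None of the 10 genes was called under any alternative run. Of 150 alternative values of the genotype differences, 132 kept their direction and 18 reversed, all of them in Ifng, Tnf, Csf2, Il10 and Lif, whose differences were near 0 beside their spread. Lif was at 0.00071 when arrays were centred on their medians, at 0.047 with array weights and at 0.078 with the mean of both probe sets, and Ifng at 0.038 with array weights. With single arrays left out, Ifng ranged from -0.35 to 0.20, Tnf from -0.32 to 0.40, Il10 from -0.77 to 0.37 and Lif from -0.20 to 0.22, each lowest without WT replicate 2 and highest without SAP-deficient replicate 2. Csf2 ranged from -0.075 without WT replicate 2 to 0.33 without WT replicate 3. Il17a ranged from -0.59 to -0.01 and the median of the 10 genes from -0.22 to 0.24 without these same replicate 2 arrays. Ltb lay between 0.24 and 0.38 with single arrays left out. The matched pairs as a replicate block changed no call. Other scalings moved the median of all genes by 0.0090 at most. Levels near background, above all Il10 in replicate 2, limit what a difference there can show.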
